A study of Mus musculus with 30 samples.

Results

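The genes described here are the collagen chains and the lysyl oxidases, measured in the lungs and spleens of mice with altered lincRNA-Cox2. They were chosen by symbol alone: every entry named as a collagen chain (Col, a type number, a and a chain number) or as Lox or Loxl1 to Loxl4 was taken, whatever its values. This gave 48 symbols among 19841 in both tissue tables, 48 of 19181 in lung and 47 of 18553 in spleen, where Col10a1 is not listed. RNA of knockout, mutant and wild type C57BL/6 mice aged 8 weeks was sequenced. The knockout and mutant lines both carry an altered lincRNA-Cox2, a long noncoding RNA made next to the cyclooxygenase gene Ptgs2; the labels used here do not state the allele of either line. Mice of each genotype were given lipopolysaccharide (LPS, a bacterial cell wall component) into the abdomen at 20 mg/kg and taken after 6 h, and the controls of each genotype are labelled PBS. Each genotype and tissue had 3 LPS and 2 PBS libraries, so each tissue had 15 libraries in 6 groups. The study's comparisons ask what each altered line changes in either tissue and under either treatment.

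Collagens are triple-helical proteins that give tissue its frame. Fibril-forming collagens (types I, III and V among others) make the cables of connective tissue, type IV makes the sheet of the basement membrane under epithelium and endothelium, and other types coat the fibrils, form beaded filaments or span cell membranes. Lysyl oxidases are copper enzymes that oxidize lysines of collagen and elastin outside the cell, which lets the chains become cross-linked. In lung these proteins carry the airways, vessels and the very thin wall between air and blood, and in spleen they form the capsule, the trabeculae and the reticular mesh.

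Group means of normalized counts, as the authors deposited them, are the values used, so no spread between libraries can be given and a difference between LPS and PBS means has no test. A genotype difference is called at an adjusted p under 0.05 in the authors' deposited table. The labels do not say that the libraries of a group came from separate animals, so these p-values measure only the spread between libraries, which may be technical. Depth per library is unknown; the group means summed over all entries to 7.44 to 10.5 M normalized counts in lung and 3.56 to 5.02 M in spleen, and the smallest mean above 0 lay between 0.199 and 0.441. The tissues were normalized separately and were not tested against each other. In whole tissue, fewer cells of a type and less RNA per cell cannot be told apart. The defining markers of lung were present, since the alveolar type 1 list summed to between 23838 and 39330 normalized counts in the lung groups. The splenic stroma list summed to between 1278 and 1788 in the spleen groups. Most of that sum was Ccl19 and Cxcl13, which are not particular to spleen (959 and 1030 in knockout lungs with LPS). Tlx1 ran between 14.8 and 186 in the spleen groups and did not exceed 0.764 in lung. Nkx2-5 ran between 19.9 and 41.2 in spleen and did not exceed 1.17 in lung. The targeted RNA, lincRNA-Cox2, was listed at 0 in knockout and mutant lungs and averaged 30.2 (LPS) and 34.8 (PBS) normalized counts in wild type lungs, while in spleen no group mean exceeded 3.53. Sex-linked RNAs did not run evenly over the groups: Xist averaged 23.2, 4510 and 14.5 normalized counts in knockout, mutant and wild type lungs with LPS, and 1910, 3300 and 3660 with PBS. The Y-linked Ddx3y averaged 1130, 4.73 and 1150 with LPS and 447, 317 and 294 with PBS. In spleens with LPS, Xist averaged 33.7, 4670 and 31.3 and Ddx3y 601, 14.0 and 705. Sex therefore cannot be told apart from genotype where mutants with LPS are compared, or from LPS in the LPS over PBS ratios. Markers of neighbouring organs also differed: the skeletal muscle list summed to 664, 63.5 and 71.4 in knockout, mutant and wild type lungs with LPS and to 2872, 84.9 and 84.8 with PBS. Their part in the results below was not tested.

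Of the 48 members in lung, 40 had a mean of at least 10 normalized counts in some group, and of the 47 in spleen, 38 did. The members below that level in lung were Col2a1, Col6a6, Col9a2, Col10a1, Col11a1, Col19a1, Col24a1 and Col26a1, whose highest group means ran between 1.02 for Col9a2 and 7.03 for Col24a1. In spleen Col2a1, Col6a6, Col9a2, Col11a1, Col17a1, Col19a1, Col24a1, Col25a1 and Col26a1 stayed below it, with highest group means between 1.10 for Col25a1 and 9.59 for Col19a1. Type II, IX, X and XI chains are best known from cartilage, and of these Col9a3 and Col11a2 passed the level in both tissues. Members together made 0.495% to 0.613% of all normalized counts in the lung groups and 0.178% to 0.295% in the spleen groups.

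Promoter windows are shown for a few members that anchor the results: the divergent pair Col4a1 and Col4a2, which had the highest LPS levels per length, Col1a2 as a fibril-forming chain, Col17a1, with the lowest LPS over PBS ratio in wild type lung, and Loxl4, with a high one. RefSeq windows on GRCm38.p6, 250 bases before to 50 after the start site, were matched for 35 of the 48 members, in 37 windows. Sequences run 5′ to 3′ on the gene's own strand. Capitals mark matches on either strand to a TATA box written TATAAA, to the motif CCAAT, to a GC box written GGGCGG, to an AP-1 site written TGANTCA, to the hypoxia core ACGTG or to the kappaB consensus.

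Col4a1 and Col4a2 lie head to head with start sites 21 bases apart, and their windows share 78 bases, one read as the reverse complement of the other:
Col4a1 (chr8:11312777-11313076, minus strand): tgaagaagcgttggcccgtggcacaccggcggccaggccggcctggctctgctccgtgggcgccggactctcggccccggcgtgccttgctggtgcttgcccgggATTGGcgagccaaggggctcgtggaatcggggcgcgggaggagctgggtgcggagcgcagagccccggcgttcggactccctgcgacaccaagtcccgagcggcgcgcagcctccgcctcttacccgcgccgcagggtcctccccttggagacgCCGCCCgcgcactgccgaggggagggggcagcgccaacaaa
Col4a2 (chr8:11312555-11312854, plus strand): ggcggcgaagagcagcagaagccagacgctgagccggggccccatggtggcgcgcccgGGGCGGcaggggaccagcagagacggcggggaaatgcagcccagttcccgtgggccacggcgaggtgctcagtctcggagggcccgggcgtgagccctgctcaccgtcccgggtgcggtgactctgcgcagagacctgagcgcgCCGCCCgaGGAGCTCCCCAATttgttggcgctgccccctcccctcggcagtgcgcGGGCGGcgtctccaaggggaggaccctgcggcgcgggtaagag

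In Col4a2 the match to the kappaB consensus overlaps the CCAAT next to it. The other windows are:
Col1a2 (chr6:4505368-4505667, plus strand): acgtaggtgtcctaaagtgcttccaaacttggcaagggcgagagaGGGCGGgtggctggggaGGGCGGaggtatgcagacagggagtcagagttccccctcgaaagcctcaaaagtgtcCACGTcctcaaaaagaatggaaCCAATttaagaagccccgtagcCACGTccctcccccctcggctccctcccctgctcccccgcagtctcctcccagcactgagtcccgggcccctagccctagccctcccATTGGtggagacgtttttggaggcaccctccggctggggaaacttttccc
Col17a1 (chr19:47691993-47692292, minus strand): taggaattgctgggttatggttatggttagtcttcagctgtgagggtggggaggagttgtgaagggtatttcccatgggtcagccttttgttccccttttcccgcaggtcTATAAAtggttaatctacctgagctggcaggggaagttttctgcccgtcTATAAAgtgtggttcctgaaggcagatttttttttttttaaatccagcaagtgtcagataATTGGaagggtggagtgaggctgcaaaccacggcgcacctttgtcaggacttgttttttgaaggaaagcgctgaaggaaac
Loxl4 (chr19:42612757-42613056, minus strand): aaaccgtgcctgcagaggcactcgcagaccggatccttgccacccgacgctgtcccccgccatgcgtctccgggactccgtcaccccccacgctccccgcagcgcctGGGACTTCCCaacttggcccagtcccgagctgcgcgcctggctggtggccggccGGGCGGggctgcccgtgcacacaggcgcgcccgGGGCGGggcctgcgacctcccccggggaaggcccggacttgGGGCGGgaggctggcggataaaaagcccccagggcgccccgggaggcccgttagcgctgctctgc

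The GC box GGGCGG was in 24 of the 37 member windows (64.9%) and in 35.7% of all 32851 windows of the same length. CCAAT was in 12 member windows (32.4%, against 37.4% of all), TATAAA in 5 (13.5%, against 13.6%), ACGTG in 5 (13.5%, against 19.6%) and TGANTCA in 1 (2.70%, against 7.81%). The kappaB consensus matched 7 member windows (18.9%, against 8.46% of all). They belong to Col4a2, Col6a2 (both of its windows), Col6a4, Col9a2, Col27a1 and Loxl4. Of these, Col6a2 and Col27a1 had lower means with LPS than with PBS in lungs of every genotype. Lox, Col9a3 and Col22a1 are among the members without a matched window. These matches describe letters and are not evidence of binding.

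Lox, the founding lysyl oxidase, was the member called between the knockout and both other genotypes in lung. In lungs with LPS it averaged 1443 normalized counts in the knockout, 2638 in the mutant and 2655 in wild type, whereas with PBS it averaged 562, 561 and 574 in knockout, mutant and wild type. The genotypes thus had nearly equal means with PBS, and the knockout mean stood below the others with LPS. The authors' deposited table gives Lox a log2 fold of -0.87 in knockout over wild type lungs with LPS (adjusted p = 0.00301), so Lox fell in the knockout, and a log2 fold of -0.01 in mutant over wild type (adjusted p = 1.00). Set against the mutant, Lox fell in the knockout too, at -0.86 (log2; adjusted p = 0.00487, the authors' deposited table). For PBS the authors' deposited table has knockout over wild type at -0.03 (log2; adjusted p = 1.00). That the genotype difference itself changes with LPS was not tested, since the tables hold no such comparison.

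Lox was the 1 member called of 40 tested in knockout over wild type lungs with LPS (1 lower, none higher), where 0.441% of all genes were called. It was also the 1 called of 40 in knockout over mutant lungs with LPS, against 0.243% of all genes. Both comparisons use the same knockout libraries. In knockout over mutant, sex and genotype cannot be told apart, given the Xist and Ddx3y means above. In mutant over wild type lungs with LPS, 0 of 45 members were called, against 0.0715% of all genes, and the authors' deposited table has no member with an adjusted p below 0.586. The unadjusted p-values behind these counts of 0 are not used here, and DESeq2, named in the submitters' processing notes, was the 1 tool.

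**Figure D1:**
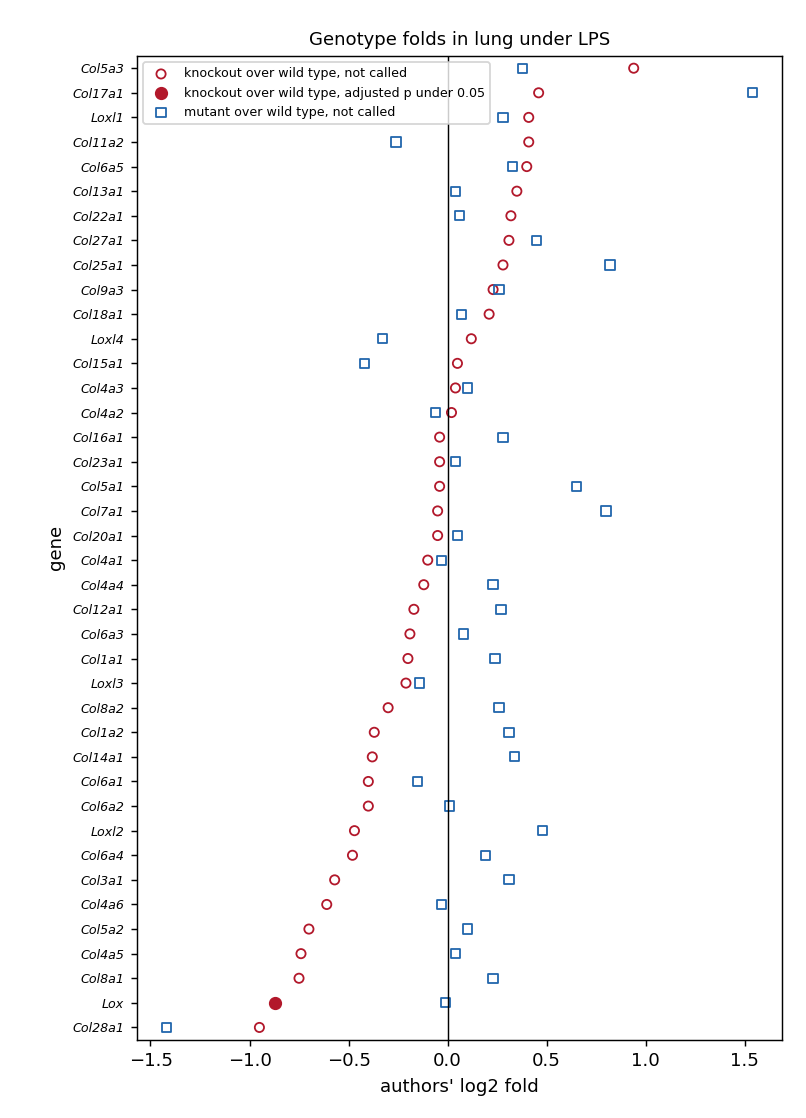
Authors' log2 folds (x axis) of the 40 collagens and lysyl oxidases tested in knockout over wild type lungs with LPS, one gene per line. Red circles are knockout over wild type and blue squares mutant over wild type; the filled circle is Lox at -0.87, the member with an adjusted p under 0.05. Both sets of folds share the wild type libraries.

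Other members had lower knockout means in lungs with LPS without a call. Of the 40 tested, 25 had a knockout over wild type log2 fold below 0, with a median of -0.08 against -0.01 for all genes tested. The folds ran between -0.95 for Col28a1, a chain best known from peripheral nerve, and 0.94 for Col5a3, a minor fibril chain, in the authors' deposited table. Col28a1 averaged 13.0 normalized counts in the knockout, 9.51 in the mutant and 28.0 in wild type, and the authors' deposited table gives knockout over wild type an adjusted p = 0.495. Col3a1, the type III chain of pliable tissue such as lung and vessel walls, averaged 2320, 4420 and 3520 in knockout, mutant and wild type lungs with LPS. The authors' deposited table puts its knockout over wild type log2 fold at -0.57 (adjusted p = 0.664). Its genotype means with PBS lay closer together, at 5210, 5120 and 5710. Col5a2, which joins type V to type I fibrils, averaged 442, 798 and 742, and the authors' deposited table has it at -0.70 (log2; adjusted p = 0.507). Loxl2, which cross-links type IV collagen, averaged 227, 461 and 324, and stands at -0.47 in the authors' deposited table (log2; adjusted p = 0.786). None of these differences passed the test.

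The knockout mean was the lowest of the 3 genotypes for 24 of 39 members in lungs with LPS (61.5%, against 36.7% of 14823 genes past the same filter), and for 10 of 37 in lungs with PBS (27.0%, against 31.6%). In spleen the order was otherwise. There the knockout was lowest for 10 of 36 members with LPS (27.8%, against 39.6% of all) and for 21 of 35 with PBS (60.0%, against 27.4%). Members vary together, so these shares describe the group means and are not a test. The endothelial marker list summed to 21554, 24975 and 24996 normalized counts in knockout, mutant and wild type lungs with LPS and to 35860, 34426 and 31976 with PBS, with 8 of 8 markers measured and none at 0. Cdh5 alone gave 12900, 14700 and 14700 of the LPS sums and 9510, 8530 and 7600 of the PBS sums. Yet 6 of the 8 markers were lower with LPS than with PBS in each genotype, with median log2 ratios of -2.28, -1.47 and -1.85. In knockout over wild type lungs with LPS, 7 of these 8 had a log2 fold below 0, with a median of -0.36 and none called. The fibroblast list summed to 27004, 29482 and 26345 with LPS and to 29992, 29572 and 31743 with PBS, with 10 of 10 measured and none at 0. Gpx3 alone gave 16100, 15400 and 13100 of the LPS sums. Over the single markers, 8 of 10 had a knockout over wild type log2 fold below 0 with LPS, with a median of -0.30 and none called, the same side as most members. Not all lists leaned that way: 5 of 6 smooth muscle markers (median 0.08) and 4 of 6 alveolar type 1 markers (median 0.20) had folds above 0. For mesothelium, 4 of 5 were below 0 (median -0.10). The liver list summed to 3871, 807 and 501 in knockout, mutant and wild type lungs with LPS and to 424, 281 and 720 with PBS. Cyp2e1 alone gave 263, 267 and 246 of the PBS sums and 103, 64.8 and 103 of the LPS sums. Alb averaged 2460, 462 and 242 with LPS and 110, 9.08 and 370 with PBS. The part of these cell types in the member means was not tested.

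With PBS, no member was called in lung. The counts were 0 of 48 in knockout over wild type (0.0421% of all genes called), 0 of 48 in mutant over wild type (0.00524%) and 0 of 48 in knockout over mutant (0.0523%), and the lowest adjusted p of a member was 1.00 in each. In spleen no member was called either. With LPS the counts were 0 of 43 in knockout over wild type (0.0241% of all genes called), 0 of 46 in mutant over wild type (0.00545%) and 0 of 30 in knockout over mutant (0.177%). With PBS they were 0 of 6 in knockout over wild type (0.160%), 0 of 46 in mutant over wild type (0%) and 0 of 46 in knockout over mutant (0%). The authors' deposited table gives an adjusted p for only 3124 spleen entries in knockout over wild type with PBS, so most members have none there.

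The spleen member with the lowest adjusted p was Col6a5, a long type VI chain. It averaged 94.2, 16.1 and 57.5 normalized counts in knockout, mutant and wild type spleens with LPS, and 27.4, 52.9 and 64.0 with PBS. The mutant mean was the lowest with LPS and the knockout mean the lowest with PBS. The authors' deposited table gives knockout over mutant spleens with LPS a log2 fold of 1.97 (adjusted p = 0.135), which is not a call. Col4a2 averaged 576, 696 and 1150 in knockout, mutant and wild type spleens with PBS; knockout over wild type is -0.94 in the authors' deposited table (log2; adjusted p = 0.342). In mutant over wild type spleens with PBS, 36 of 46 members had a fold below 0, with a median of -0.21 against 0.00 for all genes tested. Markers of stroma moved the same way: with PBS the fibroblast list summed to 2642, 2707 and 3752 in knockout, mutant and wild type spleens, the smooth muscle list to 3740, 3440 and 5576, and the mesothelium list to 576, 727 and 1106. Gpx3 alone gave 1440, 1560 and 2040 of the fibroblast sums. Over the single fibroblast markers, 10 of 10 had a mutant over wild type fold below 0, with a median of -0.51 and none called. All markers of these 3 lists had means above 0, and their part in the members' order was not tested.

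LPS and PBS means differed in both directions, and the balance varied with genotype and tissue. Ratios below are the log2 of the LPS over the PBS mean with 1 added to each, for members that reach a mean of 10 with LPS or PBS, and 2-fold is the limit used for counting. In knockout lungs 6 of 40 members were at least 2-fold higher (16.9% of all genes) and 14 were at least 2-fold lower (17.7% of all genes), with a median of -0.45 against -0.01 for all genes. In mutant lungs 6 of 40 were higher (15.5% of all) and 3 lower (16.0% of all), median -0.12 against -0.03. In wild type lungs 7 of 39 were higher (13.9% of all) and 9 lower (14.3% of all), median -0.24 against -0.03. The knockout thus had the most members past 2-fold lower and the mutant the fewest in lung, and the difference between genotypes was not tested.

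In knockout spleens 7 of 36 members were at least 2-fold higher (16.6% of all genes) and 4 lower (18.7% of all genes), with a median of -0.04 against -0.02. In mutant spleens 6 of 37 were higher (15.3% of all) and 2 lower (16.7% of all), median -0.34 against 0.00. In wild type spleens 5 of 37 were higher (13.5% of all) and 13 lower (14.8% of all), median -0.62 against 0.02. Wild type had the most members past 2-fold lower in spleen, where its PBS group had the highest stromal marker sums given above. Markers of neighbouring organs also moved in spleen. The pancreas acinar list summed to 10840, 28020 and 18350 normalized counts in knockout, mutant and wild type spleens with LPS and to 3249, 22950 and 1135 with PBS, and the liver list to 3805, 2503 and 292 with LPS and to 232, 49.3 and 1784 with PBS. In wild type spleen 6 of 6 pancreas markers were at least 2-fold higher and 6 of 6 liver markers at least 2-fold lower with LPS; the medians were 3.80 (pancreas) and -2.29 (liver) on the log2 scale. None of these markers was at 0 in any spleen group, and their part in the member ratios was not tested. The leukocyte marker list summed to 5605, 4991 and 5953 in knockout, mutant and wild type lungs with LPS and to 1608, 1818 and 1587 with PBS. Of its 4 markers 2 were at least 2-fold higher in each genotype, and in wild type the other 2 were at least 2-fold lower; the part of immune cells in the lower collagen means was not tested. In spleen that list summed to 3449, 3584 and 4142 with LPS and to 6016, 5932 and 5261 with PBS.

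**Figure D2:**
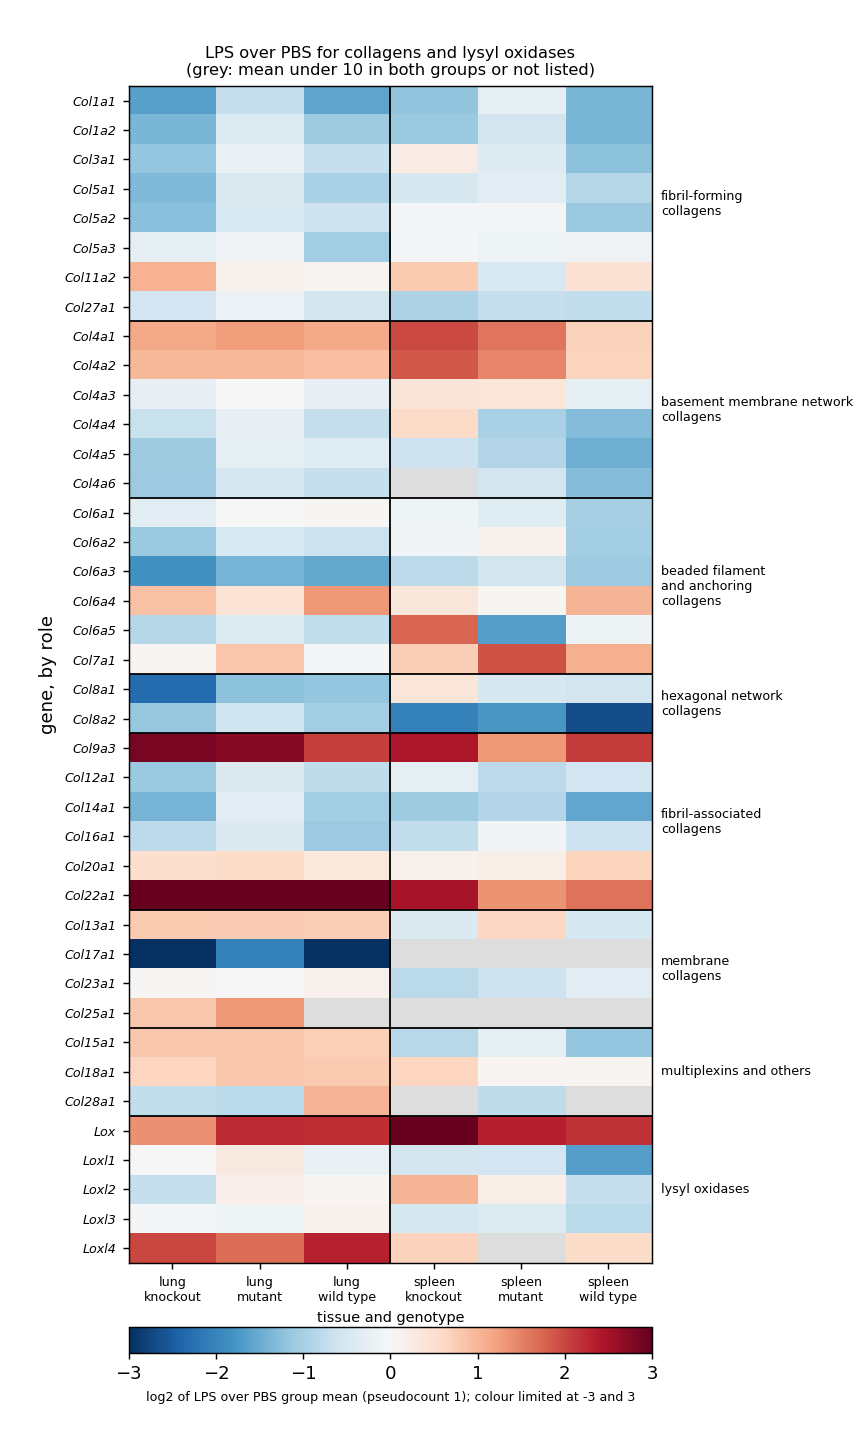
Log2 of the LPS over the PBS group mean (colour, pseudocount 1, limited at -3 and 3) for each collagen and lysyl oxidase, in rows grouped by role, with knockout, mutant and wild type columns for lung and then spleen. Red is higher and blue lower with LPS, and grey marks a mean under 10 in both groups or a gene not listed. Lox, Col9a3 and Col22a1 are past 2-fold higher in all 6 columns. Col4a1 and Col4a2 are also above 0 in all 6, and Col1a1, Col1a2, Col6a3, Col8a2 and Col14a1 are below 0 in all 6. Some other members also keep the same direction in all 6.

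Some members agreed over the genotypes. In lung Lox, Loxl4, Col4a1, Col9a3 and Col22a1 were at least 2-fold higher in all 3 genotypes. Col6a3, Col8a1 and Col17a1 were at least 2-fold lower in all 3. In spleen Lox, Col9a3 and Col22a1 were higher in all 3 genotypes and Col8a2 was lower in all 3. Between wild type tissues, of 37 members past the level in both, 4 were at least 2-fold higher in both (Lox, Col6a4, Col9a3 and Col22a1) and 5 lower in both (Col1a1, Col1a2, Col6a3, Col8a2 and Col14a1). None was higher in one tissue and lower in the other. Col9a3 and Col22a1 had PBS means under 10 in every group, so they passed the level by their LPS means alone. The share of all genes that agree over genotypes or tissues was not computed. These counts therefore name members and show no trait of the family.

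Among the lysyl oxidases, Lox and Loxl4 carried the LPS difference and the other family members did not reach 2-fold in lung. Lox had log2 ratios of 1.36, 2.23 and 2.21 in knockout, mutant and wild type lungs. In spleen it averaged 421, 230 and 288 normalized counts with LPS and 32.0, 44.8 and 63.5 with PBS in knockout, mutant and wild type, which are log2 ratios of 3.68, 2.33 and 2.16. The knockout had the smallest Lox ratio of the genotypes in lung and the largest in spleen. The authors' deposited table gives Lox a log2 fold of 0.50 in knockout over wild type spleens with LPS (adjusted p = 0.736).

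Loxl4, a family member with scavenger receptor domains, averaged 249, 182 and 230 normalized counts in knockout, mutant and wild type lungs with LPS and 61.3, 56.6 and 45.4 with PBS. All LPS means were above all PBS means, with log2 ratios of 2.00, 1.67 and 2.32. In spleen Loxl4 stayed near the level of 10, at 10.5, 4.92 and 10.6 with LPS and 6.06, 6.93 and 6.95 with PBS. Loxl1, which acts on elastin, averaged 746, 681 and 559 in knockout, mutant and wild type lungs with LPS and 737, 570 and 638 with PBS, so its treatments overlapped. In wild type spleen Loxl1 was among the lowest ratios, at -1.66, with 77.3 with LPS and 247 with PBS, against -0.56 in the knockout and -0.58 in the mutant. Loxl2 had lung ratios of -0.70, 0.16 and 0.07 and spleen ratios of 1.02, 0.19 and -0.68 in knockout, mutant and wild type. Loxl3 ratios lay between -0.14 and 0.12 in lung and between -0.82 and -0.42 in spleen. Per kb of transcript, Lox was the most abundant lysyl oxidase in lungs with LPS, at 304, 557 and 560 normalized counts in knockout, mutant and wild type, with Loxl1 next at 226, 207 and 170. With PBS that order was turned round, with Loxl1 at 224, 173 and 194 and Lox at 119, 118 and 121.

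**Figure D3:**
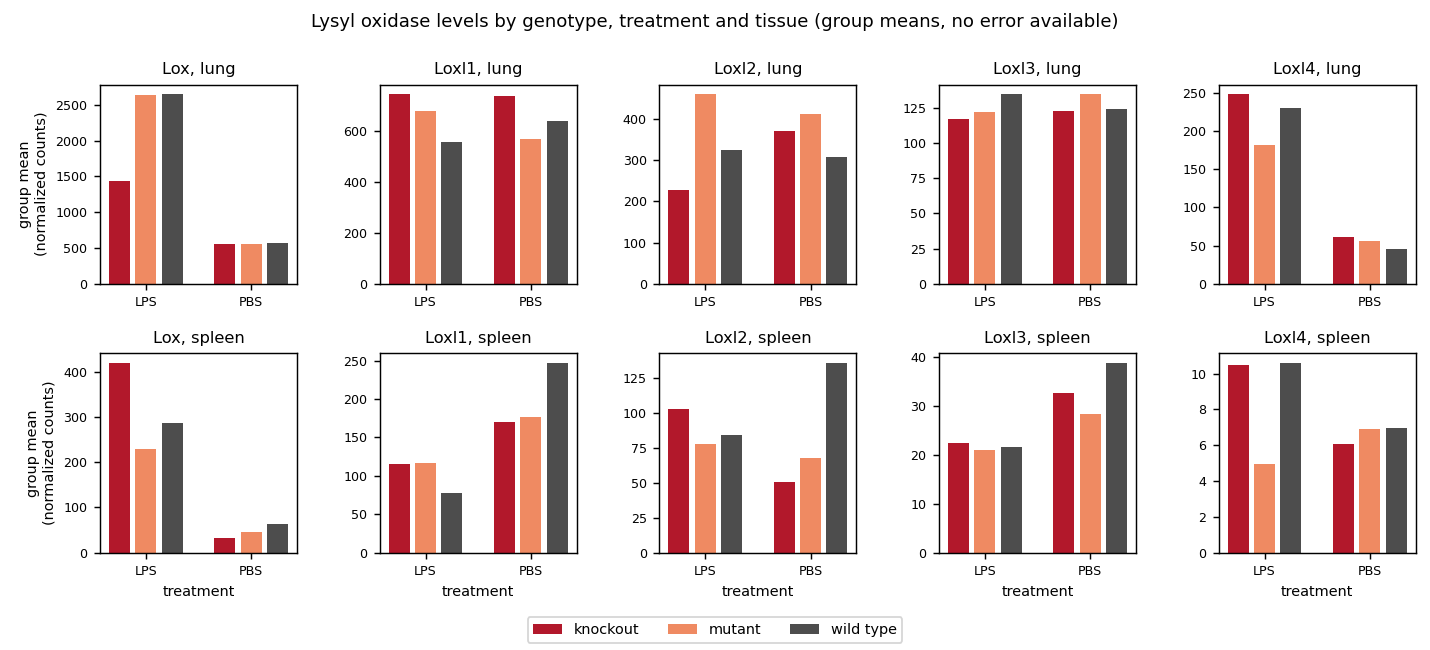
Group means of normalized counts (y axis, from 0, own scale in each panel) of the 5 lysyl oxidases in lung (top) and spleen (bottom), with LPS and PBS on the x axis and bars for knockout, mutant and wild type. The lung Lox bars with LPS stand at 1443, 2638 and 2655 and those with PBS at 562, 561 and 574; no error can be drawn because group means alone were used.

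The main basement membrane chains were the most abundant members per kb in every lung group and in spleens with LPS; in spleens with PBS Col1a2 and Col3a1 stood above them. Col4a1 and Col4a2, which assemble with each other in nearly all basement membranes, averaged 2646 and 2217 normalized counts per kb in knockout lungs with LPS, 2782 and 2093 in the mutant and 2857 and 2186 in wild type. As group means, Col4a1 stood at 17500, 18400 and 18900 in knockout, mutant and wild type lungs with LPS and at 7970, 7660 and 8570 with PBS. Col4a2 stood at 14300, 13500 and 14100 with LPS and at 7200, 6800 and 7510 with PBS. Both chains were higher with LPS in every genotype, Col4a1 past 2-fold (log2 ratios 1.13, 1.26 and 1.14) and Col4a2 just short of it (0.99, 0.99 and 0.91).

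The per-kb ratio of Col4a1 to Col4a2 ran between 1.08 and 1.33 over the lung groups and between 1.13 and 1.37 over the spleen groups, and was higher with LPS in each genotype of both tissues. In spleen Col4a1 averaged 2930, 2480 and 2340 in knockout, mutant and wild type with LPS and 739, 809 and 1450 with PBS, with log2 ratios of 1.99, 1.61 and 0.69. Wild type was below 2-fold there, and its PBS mean was the highest of the genotypes. The pair made 62.0%, 54.6% and 57.9% of the members' summed means in knockout, mutant and wild type lungs with LPS and 32.8%, 33.9% and 33.6% with PBS. In spleen its share was 51.9%, 47.4% and 49.8% with LPS and 19.2%, 20.3% and 24.7% with PBS.

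The other type IV chains, which form the networks of kidney glomeruli, alveoli and some other sites, did not share the higher LPS means in lung. Col4a3 averaged 1970, 2050 and 1910 in knockout, mutant and wild type lungs with LPS and 2330, 2080 and 2250 with PBS, and its LPS means were a little below its PBS means. Col4a4, whose start lies 72 bases from that of Col4a3 on the opposite strand of chromosome 1, had log2 ratios of -0.67, -0.25 and -0.71. Per kb, Col4a3 was 2.03 to 3.19 times Col4a4 over the lung groups. Col4a5 and Col4a6, divergent genes on the X chromosome with starts 1.31 kb apart, had ratios of -1.06, -0.27 and -0.36 for Col4a5 and -1.08, -0.50 and -0.68 for Col4a6. Col4a5 averaged 411, 731 and 713 with LPS and 858, 883 and 914 with PBS, so the knockout with LPS was the lowest group. The authors' deposited table puts knockout over wild type at -0.74 for LPS (log2; adjusted p = 0.527). In spleen these 4 chains were scarce, with no group mean above 66.4.

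**Figure D4:**
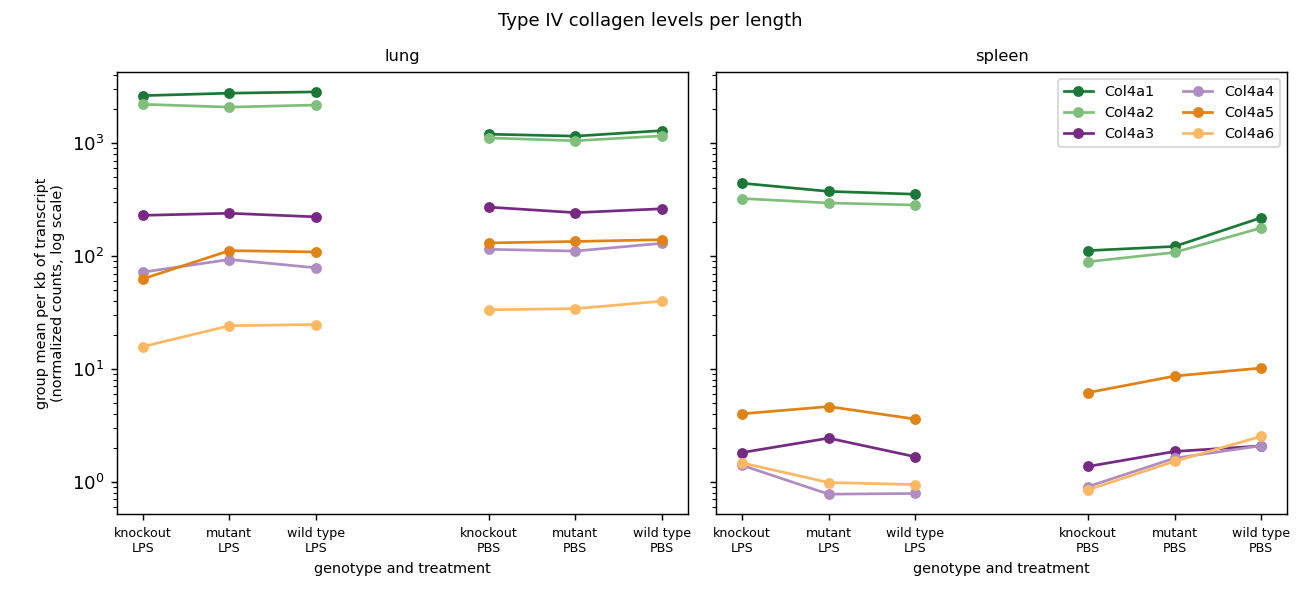
Group means per kb of transcript (y axis, log scale, normalized counts) of the 6 type IV collagen chains in lung (left) and spleen (right), for knockout, mutant and wild type with LPS and then PBS; lines join the genotypes of one treatment. Col4a1 and Col4a2 run together above the other chains in both tissues and are higher with LPS, with lung values between 2093 and 2857 with LPS and between 1054 and 1296 with PBS.

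The chief fibril-forming chains went the other way. Col1a1, a chain of type I collagen, averaged 764, 1050 and 885 normalized counts in knockout, mutant and wild type lungs with LPS and 2360, 1680 and 2650 with PBS. Its partner Col1a2 averaged 1610, 2640 and 2110 with LPS and 4120, 3500 and 4440 with PBS. No LPS mean of either chain reached the lowest PBS mean, and the log2 ratios were -1.63, -0.68 and -1.58 for Col1a1 and -1.36, -0.41 and -1.07 for Col1a2. Col3a1 had ratios of -1.17, -0.21 and -0.70. Each of these chains was past 2-fold lower in the knockout and not in the mutant. Col1a1, Col1a2 and Col3a1 together made 9.15%, 13.9% and 11.4% of the members' summed means in knockout, mutant and wild type lungs with LPS and 25.3%, 24.2% and 26.8% with PBS.

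Over all fibril-forming chains, 8 of 11 passed the level in lung. Of these 5 were at least 2-fold lower and 1 higher in the knockout (17.7% and 16.9% of all genes), 0 lower and 0 higher in the mutant (16.0% and 15.5% of all), and 3 lower and 0 higher in wild type (14.3% and 13.9% of all), with medians of -1.21, -0.31 and -0.84. The 1 higher was Col11a2, a type XI chain known from cartilage and also made elsewhere, at 42.3 with LPS and 19.9 with PBS in the knockout. The cartilage marker list summed to 148, 193 and 117 in knockout, mutant and wild type lungs with LPS and to 26.5, 27.7 and 22.3 with PBS, with 7 of its markers listed and between 1 and 3 of them at 0 in each group. Sox9, which other tissues make too, gave 137, 180 and 106 of the LPS sums and 9.31, 6.53 and 4.55 of the PBS sums, while Hapln1 was at 2.60, 7.22 and 4.50 with LPS and 11.0, 19.0 and 13.7 with PBS. The defining marker Acan did not exceed 2.01 in any lung group. The part of cartilage cells in Col11a2 and Col9a3 was not tested. In spleen Col1a1 averaged 238, 417 and 269 with LPS and 544, 504 and 698 with PBS, with ratios of -1.19, -0.27 and -1.37, so again the mutant ratio was nearest to 0. Col3a1 in spleen had ratios of 0.24, -0.39 and -1.22, with PBS means of 797, 983 and 1740. Its direction thus differed between the genotypes, and the differences were not tested. The per-kb ratio of Col1a1 to Col1a2 was 0.428, 0.359 and 0.378 in knockout, mutant and wild type lungs with LPS and 0.517, 0.433 and 0.538 with PBS, so it was lower with LPS in each genotype. In spleen it ran between 0.379 and 0.456 with no such order.

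Type VI collagen makes beaded filaments around cells from chains that assemble together, yet its chains had unlike ratios. Col6a1 averaged 2110, 2530 and 2810 in knockout, mutant and wild type lungs with LPS and 2680, 2510 and 2750 with PBS, with ratios of -0.34, 0.01 and 0.03. Col6a2 had ratios of -1.11, -0.46 and -0.65. Col6a3 averaged 428, 520 and 492 with LPS and 1510, 1370 and 1430 with PBS, with ratios of -1.82, -1.40 and -1.54. Col6a1 was thus close to its PBS means while Col6a3 was past 2-fold lower in every genotype, and the per-kb ratio of Col6a1 to Col6a2 ran between 1.14 and 1.94 over the lung groups. In spleen the ratios of Col6a3 were -0.79, -0.54 and -1.10. Col6a4, a scarce long chain, averaged 15.5, 26.0 and 22.4 in lungs with LPS and 7.89, 19.2 and 8.45 with PBS. Col7a1, which makes the anchoring fibrils of skin and other lined surfaces, averaged 125, 231 and 130 in lungs with LPS and 121, 129 and 133 with PBS. In spleen Col7a1 averaged 159, 386 and 266 with LPS and 94.6, 102 and 126 with PBS, with ratios of 0.74, 1.91 and 1.07, so the mutant had its highest LPS mean in both tissues.

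Col17a1 had the lowest LPS over PBS ratio of any member in wild type lung. It codes for a membrane collagen of hemidesmosomes, the rivets that hold basal epithelial cells to their basement membrane. It averaged 5.98, 15.0 and 3.91 in knockout, mutant and wild type lungs with LPS and 63.6, 64.0 and 64.5 with PBS. The PBS means were nearly equal and all LPS means lay far below them, with ratios of -3.21, -2.02 and -3.74. Mutant over wild type with LPS is 1.54 in the authors' deposited table (log2; adjusted p = 0.823). The other membrane collagens did not follow: Col13a1 had lung ratios of 0.79, 0.76 and 0.74 and Col23a1 of 0.03, 0.01 and 0.14. Col25a1 averaged 10.3, 16.2 and 8.40 with LPS and 5.47, 6.03 and 1.90 with PBS, and passed the level in the knockout and the mutant.

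In lung the fibril-associated chains held both the highest ratio and some of the lower ones. Col22a1, known from tissue junctions such as that of muscle and tendon, averaged 120, 99.3 and 94.5 normalized counts in knockout, mutant and wild type lungs with LPS and 3.76, 1.72 and 3.63 with PBS. Its ratios of 4.67, 5.20 and 4.37 were the highest of any member in each genotype of lung. In spleen Col22a1 averaged 12.3, 10.6 and 15.2 with LPS and 1.39, 3.54 and 4.26 with PBS. Col9a3, a type IX chain, averaged 50.5, 50.8 and 42.3 in lungs with LPS and 6.13, 6.77 and 9.33 with PBS, and 32.8, 23.4 and 32.8 with LPS and 5.32, 8.88 and 6.89 with PBS in spleens. Every LPS mean of either gene was above every PBS mean in its tissue. However, all PBS means of both genes were under 10, so they passed the level by their LPS means alone. A required mean of 50 leaves out Col9a3 in wild type of both tissues and Col22a1 in wild type spleen. Col9a2, the type IX partner chain, had no lung group mean above 1.02 and no spleen group mean above 2.19. The skeletal muscle list, which bears on a junction gene, was highest in knockout lungs with PBS, where Col22a1 averaged 3.76; its part was not tested.

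Col14a1, which coats type I fibrils, had ratios of -1.40, -0.35 and -1.03 in knockout, mutant and wild type lungs and of -1.06, -0.87 and -1.55 in spleens. Col12a1 and Col16a1, of the same class, had lung ratios of -1.12, -0.43 and -0.76 and of -0.78, -0.43 and -1.08. The mutant ratio was nearest to 0 for each of these 3 genes in lung. Col8a1 and Col8a2, the short network chains of vessel walls and of the cornea, were lower too. Col8a1 averaged 24.2, 52.2 and 44.3 in lungs with LPS and 123, 125 and 101 with PBS, with ratios of -2.30, -1.24 and -1.17. Col8a2 was the lowest member in wild type spleen, with 33.2, 36.2 and 19.4 with LPS and 139, 124 and 129 with PBS in knockout, mutant and wild type, ratios of -2.03, -1.75 and -2.67.

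The multiplexins Col15a1 and Col18a1, basement membrane zone collagens with heparan sulphate or chondroitin sulphate chains, were modestly higher in lung, with ratios of 0.81, 0.80 and 0.72 for Col15a1 and 0.65, 0.80 and 0.79 for Col18a1, all short of 2-fold. Col18a1, the source of endostatin, averaged 710, 641 and 611 with LPS and 451, 368 and 352 with PBS, so its treatments did not overlap. In spleen Col15a1 was lower instead, with ratios of -0.83, -0.26 and -1.16.

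Of the other genes of the pathway, 1 was called. Mfap4, a microfibril protein of elastic fibres, averaged 3015 normalized counts in the knockout, 7466 in the mutant and 4483 in wild type in lungs with LPS. It fell in the knockout against the mutant, at -1.26 in the authors' deposited table (log2; adjusted p = 0.0153). It was the 1 called of 11 elastic fibre genes in that comparison, where 0.243% of all genes were called. Knockout and mutant lungs with LPS also differed in sex-linked RNAs, so sex and genotype cannot be told apart between them. No gene was called in knockout over wild type lungs with LPS, where 0.441% of all genes were called, among 25 collagen synthesis and processing genes, 10 collagen receptors and uptake genes, 8 fibril-binding proteoglycans, 10 elastic fibre genes, 14 laminins and basement membrane partners or 12 TGF-beta ligands and induced genes. The median log2 folds there were -0.19, -0.18, -0.12, -0.23, -0.16 and -0.18 in that order, against -0.01 for all genes tested, and the folds below 0 numbered 19, 7, 6, 7, 11 and 9.

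With LPS over PBS in wild type lungs, 13.9% of all genes past the level were at least 2-fold higher and 14.3% lower, with a median of -0.03. Of the 25 synthesis and processing genes 2 were higher and 5 lower, with a median of -0.39. Of 10 elastic fibre genes past the level, 0 were higher and 4 lower, with a median of -0.94. The 14 laminins and basement membrane partners had 0 higher and 0 lower and a median of -0.07, beside the higher Col4a1 and Col4a2 of the same sheet. Of 8 proteoglycans that bind fibrils, 0 were higher and 2 lower, with a median of -0.45. The 10 receptors had 1 higher and 2 lower, and the 13 TGF-beta ligands and induced genes 2 higher and 1 lower.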

How the data were processed

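Messenger RNA of lungs and spleens was sequenced in 30 libraries. STAR 2.5.3a, Bowtie2, SAMtools, bedtools, DESeq2 and the mm10 genome are named in the submitters' processing notes, without order or settings. Each of the 2 deposited tables holds, per the file headers, the authors' group means of counts divided by size factors, a normalized signal. For 6 genotype comparisons per tissue each deposited table adds a log2 fold, pulled towards 0, with an adjusted p-value and a call mark, both handled as a score because broken lines put other numbers into those columns. Marks of the authors end at an adjusted p of 0.1. Libraries were not used one by one here, so depth and replicate error are unknown.

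Of 19476 lung lines 6 were broken and left out, and of 18850 spleen lines 5. In spleen 1026 split symbols were rejoined. For repeated symbols (242 and 241) the entry with the highest overall mean was kept, which among members touches Loxl2. LPS was set against PBS by the log2 of their mean ratio after adding a pseudocount of 1, for genes reaching a mean of 10 with LPS or PBS, with a limit of 2-fold and no test; this step was tested on simulated data. Levels per length used the longest principal protein-coding transcript of GENCODE M21. Promoter windows came from RefSeq. Pandas 2.3.3 was used. Whether reads were counted by strand is not given in the sources used here, so overlapping genes such as Col4a1 and Col4a2, whose first exons may share reads, cannot be fully told apart.

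The members were taken by symbol, whatever their values. The gene lists, and the grouping of members by role, were chosen with earlier results of these data known. Named in full were the lysyl oxidases, the type I, III, IV and main VI chains, members with an adjusted p under 0.1, and the 5 highest and 5 lowest LPS ratios in wild type of each tissue; other members with a mean of at least 10, and listed genes with an adjusted p under 0.05, could be named too. Alternatives were a limit of 0.1 on the adjusted p, pseudocounts of 0.1 and 5, a minimum mean of 50 or none, all repeated entries counted, and ratios centred on the median of all genes.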

Additional observations from a re-analysis of the deposited data

How the results depend on the processing

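The member counts called by genotype were the same at an adjusted p up to 0.1 and with every repeated entry counted. Of 1091 member ratios recomputed under an alternative, 1078 stayed on the same side of 2-fold, 13 crossed it and 0 changed direction past it. With a mean of at least 50 required, 4 members were at least 2-fold higher with LPS in wild type lung (7 as reported) and 3 in wild type spleen (5 as reported). With no filter on low means, 7 members were at least 2-fold lower in knockout spleen (4 as reported) and 5 in mutant spleen (2 as reported). Those added have means under 10. Further counts shifted under both settings. Without the filter, Col6a6, Col19a1, Col24a1 and Col26a1 joined the lower members in knockout lung, and Col17a1, Col24a1 and Col26a1 those in wild type spleen. For Lox in lung with LPS, the log2 ratio of group means, an alternative chosen after seeing the data, was -0.88 for knockout over wild type and -0.87 for knockout over mutant. No paired analysis was possible because the deposited columns are group means and carry no replicate numbers. For the same reason libraries could not be left out in turn, and no count model was fitted. Low members rest on few reads, and their ratios move with the pseudocount.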

Other observations

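Elastin and its partners are substrates or neighbours of the lysyl oxidases, and the genes named here were chosen after their values were seen. Eln, elastin itself, averaged 218, 759 and 384 normalized counts in knockout, mutant and wild type lungs with LPS and 1270, 1240 and 1450 with PBS. Mfap2, a microfibril protein, averaged 19.8, 36.0 and 28.2 with LPS and 440, 506 and 455 with PBS, log2 ratios of -4.41, -3.78 and -3.96. Among genes that process collagen, Colgalt2, a galactosyltransferase, had ratios of -2.90, -2.88 and -2.87 and Adamts3, a procollagen peptidase, of 2.03, 2.27 and 1.63. These ratios have no test.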
